A study of Homo sapiens with 6 samples.

Results

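The ERBB receptors and their EGF-family ligands were examined in RNA sequencing of NCI-H520, an established wild-type (WT) human lung squamous cell carcinoma line. One group of 3 libraries came from cells given cisplatin, a DNA-crosslinking platinum drug, at 2 µM. The other 3 libraries came from cells given phosphate-buffered saline (PBS), and all 6 were taken at 48 h. All cells grew in medium with 15% serum, which itself contains growth factors, and a single line is the only model here. The 9 genes were taken from a list by symbol: the receptors EGFR, ERBB2, ERBB3 and ERBB4 and the ligands AREG, EREG, HBEGF, TGFA and NRG1. All 9 were found among the 61552 genes of the files, and 7 had enough counts to be tested.

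ERBB receptors are membrane tyrosine kinases that work in pairs. EGFR binds EGF, TGFA, AREG and other EGF-like ligands, ERBB2 has no known ligand and serves as a partner, ERBB3 binds neuregulins but has little kinase activity of its own, and ERBB4 binds neuregulins and some EGF-like ligands. The ligands are made as membrane-bound precursors and are cut free by metalloproteases. The active receptors signal through RAS and ERK and through PI3K and AKT, and EGFR signalling is well known in epithelial lung tumours.

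After cisplatin the receptor mRNAs moved in opposite directions. ERBB2 rose 1.83-fold (95% interval 1.51 to 2.23), ERBB4 fell 2.12-fold and EGFR fell 1.56-fold, while ERBB3 was not called. Among the ligands AREG rose 2.75-fold (95% interval 1.94 to 3.90), and TGFA, by far the most abundant of them, fell 1.31-fold. EREG had no count in any library. A gene was called when its adjusted p was under 0.05 in edgeR's quasi-likelihood fit over 15063 genes, and 5 of the 7 tested genes were called, 2 higher and 3 lower, against 38.2% of all tested genes. The values of the groups did not overlap for these 5 genes, an arrangement seen in 49.7% of all tested genes. The fall of EGFR depended on the processing and on single libraries, as given below.

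The libraries held 9121180 to 16724285 expected counts, and mitochondrial genes took 3.26% to 4.13% of them under cisplatin and 4.15% to 6.05% under PBS, without overlap. The labels do not say that replicates were separate cultures, so the spread behind each p-value is that of these libraries and may be technical. In a bulk sample, fewer cells expressing a gene and less RNA per cell cannot be told apart. The squamous label was checked against 9 markers: SOX2 averaged 323 ± 26.7 CPM (library-scaled counts) under cisplatin and 309 ± 24.2 CPM under PBS (SD, n = 3 each), but TP63 had at most 3 counts in any library and DSG3 had none. Of the 5 squamous markers tested, TRIM29 rose, with 20.4 ± 1.83 CPM under cisplatin and 8.39 ± 1.27 CPM under PBS (log2 fold change 1.29, edgeR adjusted p = 3.51e-05), and the other 4 were not called. The adenocarcinoma marker NKX2-1 rose as well, at 7.28 ± 0.132 CPM under cisplatin and 4.07 ± 0.633 CPM under PBS (log2 fold change 0.81, edgeR adjusted p = 0.00218). Of 5 epithelial markers, 4 were higher under cisplatin, against 18.9% of all tested genes. The other, EPCAM, was not called (log2 fold change -0.124, edgeR adjusted p = 0.194). With an offset for transcript length 3 of the 5 were higher and 1 lower, against 17.1% and 16.7% of all tested genes. The lower gene was EPCAM (-0.255, edgeR adjusted p = 0.0109). KRT18 lost its call with an offset for transcript length and without cisplatin replicate 2, and CDH1 and KRT18 lost theirs in limma on log2(TPM + 1). The summed level of the 5 was 2750 to 2930 CPM under cisplatin and 2270 to 2430 CPM under PBS. The leukocyte markers PTPRC and CD3E and the fibroblast marker COL3A1 were at 0 in every library. The 5 leukocyte markers summed to 3.30 to 4.09 CPM under cisplatin and 0.670 to 1.32 CPM under PBS, most of it LYZ, and the 7 fibroblast markers to 23.3 to 25 CPM under cisplatin and 11.2 to 16.0 CPM under PBS, most of it COL1A1. The part of these markers and of the mitochondrial share in the results below was not tested.

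ERBB2 (ENSG00000141736; chromosome 17, 39687914 to 39730426, plus strand, in GRCh38) encodes the partner receptor. It stood at 15.3, 15.9 and 17.3 CPM in the cisplatin libraries and at 8.93, 7.76 and 9.90 CPM in the PBS libraries. The lowest cisplatin value lay well above the highest PBS value. Its log2 fold change was 0.87 ± 0.13 (SE; edgeR adjusted p = 3.48e-04), and ERBB2 was called in all 16 alternative settings, with log2 values of 0.785 to 0.997. The use of strand in counting is not given in the sources used here, so reads of overlapping genes on the opposite strand could have been counted to ERBB2. Of its exonic bases 5.53% are shared with MIEN1 and 1.88% with PGAP3. MIEN1 averaged 570 and PGAP3 253 counts per library, against 80 to 288 counts in single libraries for ERBB2. The share of bases therefore does not bound the share of reads, which was not tested.

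ERBB4 (ENSG00000178568; chromosome 2, 211375717 to 212538841, minus strand) had 12, 19 and 26 counts in the cisplatin libraries and 27, 51 and 45 counts in the PBS libraries. Scaled to library size these were 1.20, 1.69 and 1.56 CPM under cisplatin and 3.01, 3.35 and 3.14 CPM under PBS. Each PBS value was above each cisplatin value. The means were 1.48 ± 0.258 CPM under cisplatin and 3.17 ± 0.172 CPM under PBS (SD, n = 3 each), from at most 51 counts per library. The log2 fold change was -1.08 ± 0.23 (edgeR adjusted p = 0.00350), and the gene was called in all 15 alternatives that tested it. The 95% interval of the decrease ran from 1.49-fold to 3.01-fold.

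EGFR (ENSG00000146648; chromosome 7, 55019021 to 55211628, plus strand) had 26, 35 and 36 counts under cisplatin, or 2.59, 3.12 and 2.16 CPM, and 36, 63 and 57 counts under PBS, or 4.02, 4.14 and 3.97 CPM. The PBS values were close together and above the 3 cisplatin values. On the log2 scale EGFR fell by 0.64 ± 0.20 (edgeR adjusted p = 0.0253), and the interval of the decrease ran from 1.15-fold to 2.12-fold. The call was lost in 8 of 15 alternatives. DESeq2 gave an adjusted p of 0.103, and edgeR gave 0.0512, 0.0633 and 0.0513 without PBS replicates 1, 2 and 3, and 0.0670 and 0.123 without cisplatin replicates 1 and 3. The abundance-weighted EGFR transcript averaged 9500 bases over the libraries, longer than in 99.0% of tested genes, and with an offset for transcript length the log2 fold change was -0.25 (edgeR adjusted p = 0.361).

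ERBB3 (ENSG00000065361; chromosome 12, 56076799 to 56103505, plus strand), the neuregulin receptor, stood at 8.27, 10.4 and 6.67 CPM under cisplatin and at 5.81, 8.22 and 6.83 CPM under PBS. The groups overlapped. The log2 fold change of 0.25 ± 0.19 was not called (edgeR adjusted p = 0.323), and the 95% interval of the fold change, 0.895 to 1.57, leaves room for a modest change in either direction.

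**Figure D1:**
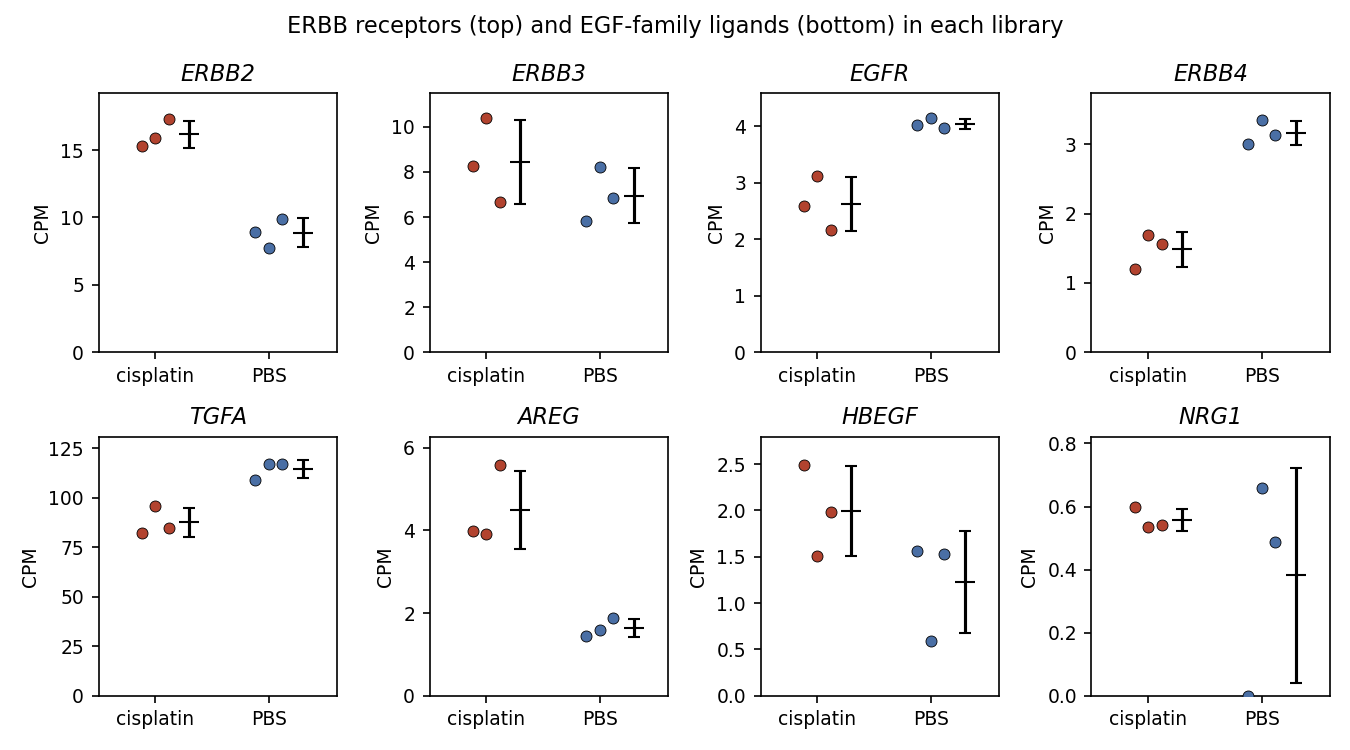
CPM of 8 of the 9 genes in each library, receptors in the top row and ligands in the bottom row, with cisplatin on the left of each panel and PBS on the right. Points are libraries, bars are the mean ± SD of 3, and each axis starts at 0. ERBB2 and AREG are higher and EGFR, ERBB4 and TGFA lower in all 3 cisplatin libraries, while ERBB3, HBEGF and NRG1 overlap.

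TGFA (ENSG00000163235; chromosome 2, 70447280 to 70554193, minus strand) encodes transforming growth factor alpha, a ligand of EGFR. It had 81.9, 95.9 and 84.8 CPM under cisplatin and 109, 117 and 117 CPM under PBS. The highest cisplatin library was still below the lowest PBS library. The log2 fold change was -0.38 ± 0.08 (edgeR adjusted p = 0.00290), with 822 to 1411 counts per cisplatin library and 972 to 1781 per PBS library behind it. TGFA was called in all 16 alternatives, with log2 values of -0.60 to -0.30.

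AREG (ENSG00000109321; chromosome 4, 74445134 to 74455009, plus strand) encodes amphiregulin, another EGFR ligand. It had 40, 44 and 93 counts in the cisplatin libraries and 13, 24 and 27 counts in the PBS libraries. In CPM the values were 3.99, 3.92 and 5.59 under cisplatin and 1.45, 1.58 and 1.88 under PBS. The smallest cisplatin value was clearly above the largest PBS value, and cisplatin replicate 3 was the highest of all. The log2 fold change was 1.46 ± 0.23 (edgeR adjusted p = 5.42e-04), it was 1.25 without cisplatin replicate 3, and the gene was called in all 15 alternatives that tested it.

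EREG and AREG are neighbours on chromosome 4, 56383 bases apart, so their upstream sequences are given to show what lies in front of AREG, which rose, and of EREG, which had no counts. They are from the RefSeq promoter table (GRCh38.p14), written 5′ to 3′ on the strand of the gene and without bases that GENCODE 29 places in an exon. The AREG, EREG and ERBB4 stretches end just before the first annotated exon. TGFA and ERBB4 fell, and the TGFA stretch lies in an intron, downstream of the first exon of a longer annotated transcript. Capitals mark matches, on either strand, to a cyclic AMP response element (TGACGTCA), a TATA box (TATAAA), a GC box (GGGCGG) or an AP-1 site (TGANTCA).
AREG, chr4:74444886-74445133, plus strand: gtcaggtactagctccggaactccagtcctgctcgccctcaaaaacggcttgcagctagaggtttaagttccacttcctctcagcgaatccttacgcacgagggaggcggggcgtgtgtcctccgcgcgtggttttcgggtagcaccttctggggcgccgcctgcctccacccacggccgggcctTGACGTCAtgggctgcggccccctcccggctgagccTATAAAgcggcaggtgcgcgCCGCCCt
EREG, chr4:74364895-74365142, plus strand: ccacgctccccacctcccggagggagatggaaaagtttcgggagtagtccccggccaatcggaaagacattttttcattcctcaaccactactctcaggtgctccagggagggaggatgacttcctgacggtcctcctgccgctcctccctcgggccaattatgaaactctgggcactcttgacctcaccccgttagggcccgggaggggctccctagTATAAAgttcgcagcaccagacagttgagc
TGFA, chr2:70554016-70554076, minus strand: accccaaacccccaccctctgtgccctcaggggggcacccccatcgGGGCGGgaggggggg
ERBB4, chr2:212538842-212539052, minus strand: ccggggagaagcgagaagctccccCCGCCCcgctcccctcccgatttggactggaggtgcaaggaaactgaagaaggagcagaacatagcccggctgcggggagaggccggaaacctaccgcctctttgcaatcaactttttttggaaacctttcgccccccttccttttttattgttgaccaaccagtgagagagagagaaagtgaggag

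In the 250 bases before the RefSeq start, AREG held a response element 65 bases and a TATA box 29 bases before it, counted from the first base of each match. Of 35116 RefSeq windows of that length, 1.65% held the response element and 10.7% a TATA box. The EREG window held a TATA box 32 bases before its start. The window of the first TGFA start held 3 GC boxes and the ERBB4 window 1, a motif found in 42.6% of windows, and neither held the response element, a TATA box or an AP-1 site. The AP-1 letters were in 6.57% of windows. These are matches of letters only. Windows were found for 7 of the 9 genes: that of the first EGFR start held 2 GC boxes, that of the second EGFR start held 2 TATA boxes and 2 AP-1 sites, that of HBEGF held 5 GC boxes, and that of ERBB2 held 1 AP-1 site. The window of the second TGFA start held none of the motifs.

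HBEGF (ENSG00000113070; chromosome 5, 140332843 to 140346631, minus strand), the heparin-binding ligand of EGFR and ERBB4, had 25, 17 and 33 counts under cisplatin and 14, 9 and 22 counts under PBS. The CPM were 2.49, 1.51 and 1.98 under cisplatin and 1.56, 0.592 and 1.53 under PBS. The groups overlapped because cisplatin replicate 2 was below PBS replicates 1 and 3. The log2 fold change was 0.74 ± 0.36 and was not called (edgeR adjusted p = 0.124). Its interval, 0.972-fold to 2.86-fold, does not settle a direction.

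NRG1 (ENSG00000157168; chromosome 8, 31639386 to 32767959, plus strand), the neuregulin that binds ERBB3 and ERBB4, had 6, 6 and 9 counts under cisplatin and 0, 10 and 7 counts under PBS. It did not reach the count minimum and was not tested. EREG (ENSG00000124882; chromosome 4, 74365143 to 74388751, plus strand), which encodes epiregulin, had 0 counts in all 6 libraries. A count of 0 allows up to 3 counts, or 0.180 to 0.299 CPM in the cisplatin libraries and 0.197 to 0.335 CPM in the PBS libraries, counting error only.

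The other EGF-family ligands were EGF, BTC, EPGN, NRG2, NRG3 and NRG4. EGF, the founding ligand of EGFR, rose 2.52-fold: it had 10.9, 10.2 and 9.79 CPM under cisplatin and 4.13, 3.88 and 4.18 CPM under PBS (log2 fold change 1.33 ± 0.14, edgeR adjusted p = 4.32e-05). The groups were far apart, and EGF was called in every alternative. BTC, betacellulin, had 2.69, 2.67 and 2.82 CPM under cisplatin and 1.67, 2.10 and 2.02 CPM under PBS. Its groups did not overlap, but its log2 fold change of 0.48 ± 0.22 was not called (edgeR adjusted p = 0.108). EPGN, next to EREG on chromosome 4, had no count. NRG2 had 4, 1 and 4 counts under cisplatin and 8, 7 and 11 under PBS, and NRG3 had 1, 5 and 8 counts under cisplatin and 9, 9 and 17 under PBS. These neuregulins were too low to be tested, although neither overlapped between the groups. NRG4 had at most 11 counts in a library and shares 38.1% of its exonic bases with FBXO22 on the opposite strand, so its values are uncertain.

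**Figure D2:**
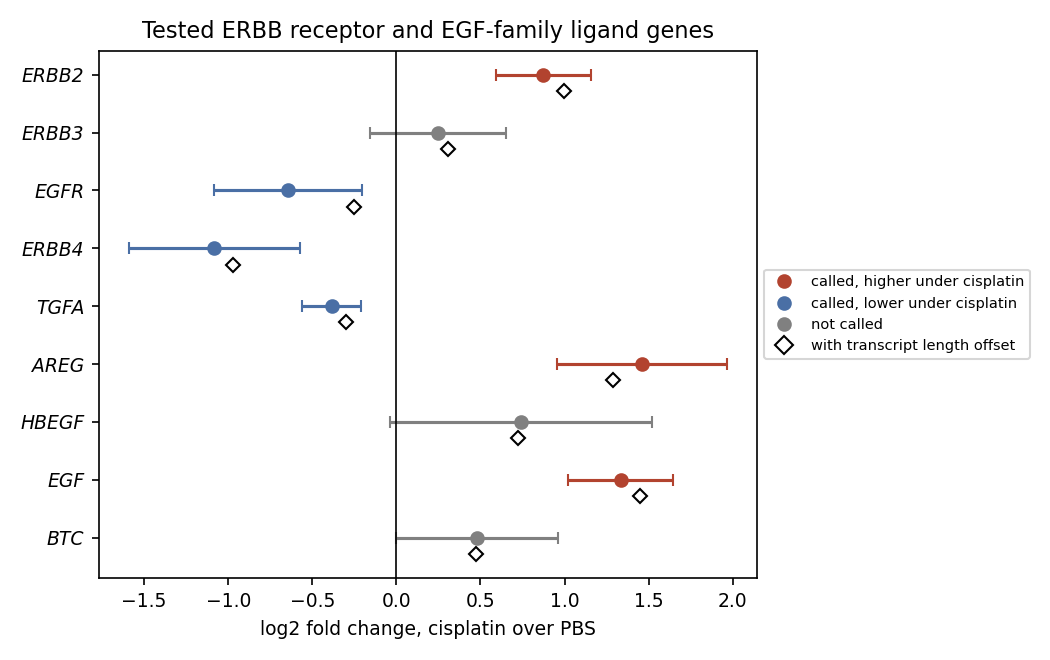
Log2 fold change, cisplatin over PBS, of the 7 tested listed genes and of EGF and BTC; filled circles are the edgeR values with their 95% intervals, and open diamonds are the values after an offset for transcript length. Only the EGFR value moves from called to not called with the offset, at -0.64 without it and -0.25 with it.

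Levels of different genes were compared in TPM, a unit that divides by transcript length and library total. Under cisplatin TGFA was the highest of the 9 genes at 27.4 ± 2.89 TPM (SD, n = 3), followed by ERBB2 at 5.33 ± 0.810 and AREG at 5.12 ± 0.932, which overlapped each other. ERBB3 was next at 3.06 ± 0.646 TPM, and HBEGF, NRG1, ERBB4 and EGFR lay between 1.01 and 0.290 TPM, with each overlapping the next. Under PBS TGFA stood at 42.1 ± 3.59 TPM (SD, n = 3), and ERBB3 (2.78 TPM), ERBB2 (2.56 TPM) and AREG (2.02 TPM) followed in an order that their spread did not separate. ERBB4 was at 1.31 TPM under PBS with a range of 0.63 to 1.90, and EGFR at 0.493 TPM was below both ERBB2 and ERBB3 in each PBS library.

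Together the 4 receptors held 9.44, 9.63 and 8.27 TPM in the cisplatin libraries and 6.26, 6.90 and 8.26 TPM in the PBS libraries, so the groups only just failed to overlap. ERBB2 made up 66.1%, 52.5% and 56.7% of that sum under cisplatin and 39.3%, 31.4% and 36.9% under PBS, and was the largest receptor in every cisplatin library. The share of ERBB3 was 27.1%, 39.4% and 34.2% under cisplatin and 31.3%, 51.6% and 34.0% under PBS, with no separation of the groups. EGFR took 2.78% to 3.53% under cisplatin and 6.05% to 7.83% under PBS. The ratio of ERBB2 to EGFR in TPM was 14.9 to 20.8 under cisplatin and 4.02 to 6.10 under PBS. In CPM, which does not divide by transcript length, the mean ratio was 6.34 under cisplatin and 2.2 under PBS. The mean ERBB2 share in CPM was 56.5% under cisplatin and 38.5% under PBS. The ERBB2 and EGFR shares and their ratio were picked after the values had been seen.

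The 5 listed ligands summed to 32.2, 37.0 and 33.4 TPM under cisplatin and to 43.2, 42.3 and 50 TPM under PBS. The sum was lower in all 3 cisplatin libraries, and TGFA made up most of it, at 80%, 83.1% and 77.3% under cisplatin and 94.2%, 93.3% and 92.3% under PBS. Without TGFA the ligands summed to 6.45, 6.25 and 7.59 TPM under cisplatin and to 2.50, 2.82 and 3.83 TPM under PBS, and the groups did not overlap in that direction either. AREG supplied 12.2% to 18.5% of the ligand TPM under cisplatin and 3.91% to 5.12% under PBS. The sum without TGFA leaves out the only listed ligand that was called lower, so its separation follows in part from that choice. That sum and the TGFA and AREG shares were not among the planned measures.

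**Figure D3:**
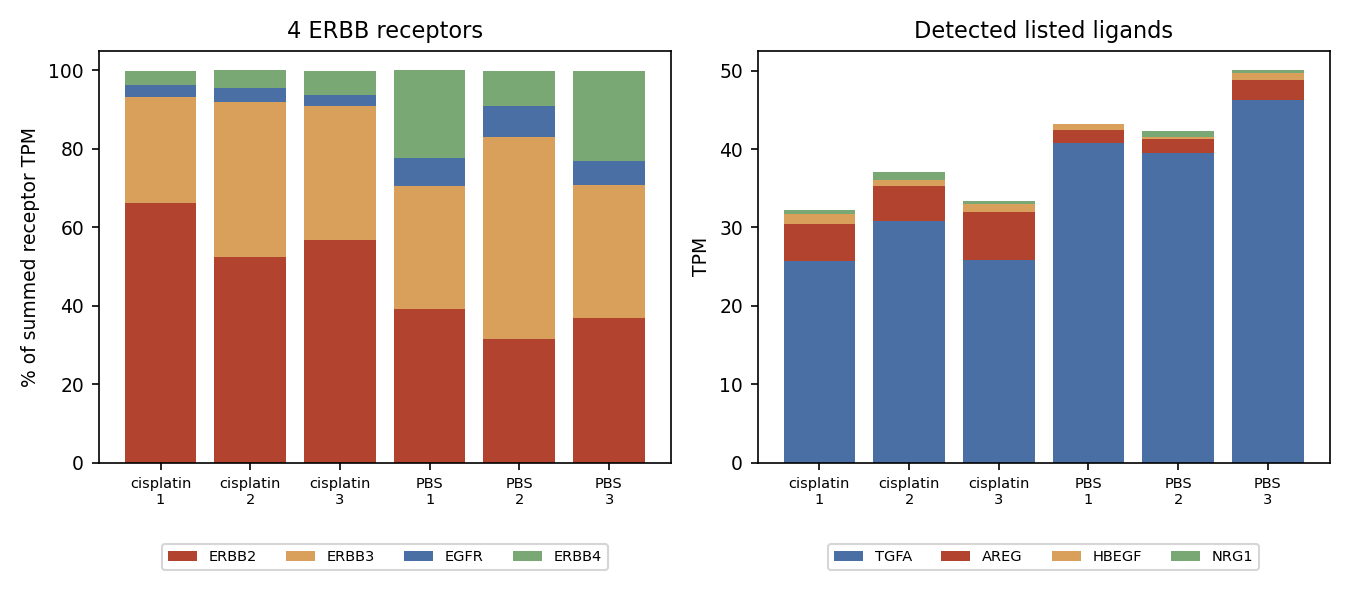
Left, the share of each receptor in the summed TPM of the 4 receptors, as a percentage, in each of the 6 libraries; right, the TPM of the 4 detected listed ligands stacked in each library, both axes starting at 0. ERBB2 takes 52.5% to 66.1% of receptor TPM under cisplatin and 31.4% to 39.3% under PBS, and TGFA fills most of each ligand bar.

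The files also give for each gene a transcript length, averaged over its transcripts by abundance, which shows whether the mix of transcripts differed. The TGFA transcript averaged 3652, 3545 and 3636 bases in the cisplatin libraries and 3116, 3387 and 3390 bases in the PBS libraries. It was longer in every cisplatin library (exact two-sided permutation p = 0.1, the smallest that 3 against 3 libraries can give). Of 12873 tested genes whose length varied, 8.03% were longer without overlap under cisplatin and 18.4% did not overlap in either direction. ERBB2 had 2904, 3562 and 4041 bases under cisplatin and 4125, 4006 and 4250 bases under PBS, which overlap (exact permutation p = 0.2). ERBB4 ranged from 3359 to 4279 bases under cisplatin and from 2332 to 5767 bases under PBS, a spread that its TPM values share. EGFR and ERBB3 overlapped as well, and AREG and HBEGF had the same length in all libraries.

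**Figure D4:**
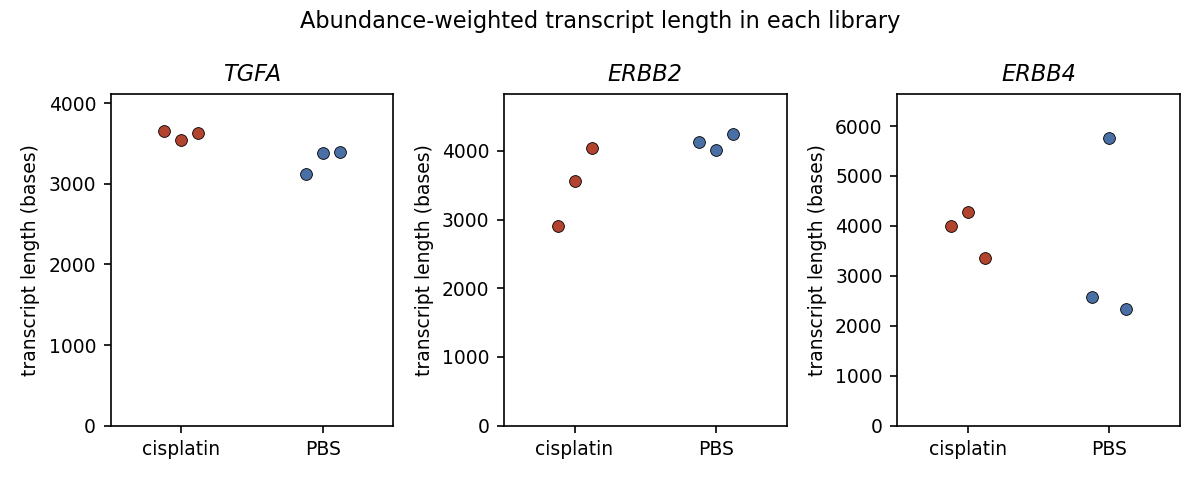
Abundance-weighted transcript length, in bases, of TGFA, ERBB2 and ERBB4 in each library, with cisplatin on the left and PBS on the right and axes starting at 0. The 3 cisplatin libraries lie above the PBS libraries for TGFA, and the groups overlap for ERBB2 and ERBB4.

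Of 10 genes that act in ligand shedding, all were tested and 4 were higher and 4 lower under cisplatin, against 18.9% higher and 19.3% lower among all tested genes. With the length offset 4 were higher and 2 lower, against 17.1% higher and 16.7% lower among all tested genes. The metalloproteases ADAM10 and ADAM17, which cut the ligands, fell: ADAM10 had 285 ± 4.98 CPM under cisplatin and 386 ± 20.5 CPM under PBS (log2 fold change -0.44 ± 0.07, edgeR adjusted p = 5.38e-04), and ADAM17 fell by 0.42 ± 0.09 on the log2 scale (edgeR adjusted p = 0.00245). ADAM12, a related protease, fell by 0.64, a call lost without PBS replicate 3, in limma on log2(TPM + 1) and with the length offset (-0.32, edgeR adjusted p = 0.179). ADAM9 fell by 0.29, a call lost with the length offset (-0.15, edgeR adjusted p = 0.154), in limma on log2(TPM + 1) and without PBS replicates 1 or 3 or cisplatin replicates 1 or 3. ADAM15 stood at 85.7 ± 4.08 CPM under cisplatin and 75.7 ± 7.27 CPM under PBS and was not called (edgeR adjusted p = 0.116). RHBDF1, an iRhom that escorts ADAM17 to the cell surface, rose by 2.00 ± 0.31 from a low level, with 2.38 CPM under cisplatin and 0.608 CPM under PBS. TIMP3, a metalloprotease inhibitor, rose by 0.93 ± 0.15 (edgeR adjusted p = 6.37e-04). RHBDL2, a membrane protease of the rhomboid type, rose by 2.16, but at 1.23 CPM under cisplatin and 0.252 CPM under PBS, and was not called without PBS replicate 2.

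Of 21 tested genes that restrain or turn over the receptors, 8 fell and 0 rose, against 19.3% lower and 18.9% higher among all tested genes. Their median log2 fold change was -0.16 against 0.00 over all tested genes. The phosphatase PTPRK fell by 0.69 ± 0.13, SOCS5, a suppressor of cytokine and EGFR signalling, by 0.67 ± 0.14, and the ubiquitin ligase CBL, which marks EGFR for degradation, by 0.52 ± 0.08 (edgeR adjusted p = 3.48e-04). With the length offset CBL stood at -0.10 and was not called (edgeR adjusted p = 0.362), and PTPRK was not called in limma on log2(TPM + 1) (adjusted p = 0.147). With the offset 4 of the 21 genes were lower, a share close to the 16.7% of all tested genes. None of the 21 was higher with the offset, against 17.1% of all tested genes. Long transcripts were lower in general: the median log2 fold change was -0.22 in the 3766 tested genes with the longest transcripts and 0.19 in the 3766 with the shortest.

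Of 20 tested adaptors that couple the receptors to RAS, 6 fell and 1 rose, at a median log2 fold change of -0.15. Among all tested genes 19.3% fell and 18.9% rose. With the length offset 6 adaptors fell and 2 rose, against 16.7% and 17.1% of all tested genes. The phosphatase PTPN11 (SHP2), needed for RAS activation, had 169 ± 11.3 CPM under cisplatin and 266 ± 14.6 CPM under PBS (log2 fold change -0.65 ± 0.08, edgeR adjusted p = 7.61e-05). The adaptor CRKL fell by 0.58 ± 0.10 and the RAS inactivator RASA1 by 0.56 ± 0.09. The adaptor GRB7 rose by 0.59 ± 0.13 (edgeR adjusted p = 0.00336). GRB2, the main link from the receptors to RAS, had 144 ± 1.92 CPM under cisplatin and 134 ± 6.52 CPM under PBS and was not called (edgeR adjusted p = 0.249).

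Of 13 tested genes of the RAS, RAF, MEK and ERK chain, 4 were lower and 1 higher. Among all tested genes 19.3% were lower and 18.9% higher. With the length offset 3 of the chain were lower and 2 higher, against 16.7% and 17.1% of all tested genes. The ERK-activated kinase RPS6KA3 fell by 0.42 ± 0.09, MAP2K1 fell by 0.25 and MAPK3 rose by 0.26. The MAP2K1 call was lost with total count scaling and without PBS replicate 3 or any cisplatin replicate. Its adjusted p reached 0.200 over its alternatives, in limma on log2(TPM + 1). The MAPK3 call was lost with the length offset and without PBS replicates 2 or 3 or cisplatin replicates 1 or 3. For MAPK3 the adjusted p reached 0.416 in the same limma fit. BRAF, a kinase that activates MEK, fell by 0.27 and stood at -0.10 with the length offset (edgeR adjusted p = 0.429). Its call was also lost without PBS replicates 2 or 3 or any cisplatin replicate. DESeq2, limma on log2(TPM + 1) and the fit with no low-count filter did not call BRAF either. RPS6KA3 was not called in limma on log2(TPM + 1) (adjusted p = 0.143). Of 11 tested PI3K and AKT genes, 2 were lower and 1 higher, against 19.3% lower and 18.9% higher among all tested genes. With the length offset 0 of the 11 were lower and 2 higher, against 16.7% and 17.1% of all tested genes. The regulatory subunit PIK3R3 rose by 0.46 ± 0.09 (edgeR adjusted p = 0.00128, and 0.105 in limma on log2(TPM + 1)). PIK3CA, a catalytic subunit, fell by 0.29 and stood at -0.17 with the length offset (edgeR adjusted p = 0.144). Its call was also lost in limma on log2(TPM + 1) and without PBS replicate 2 or cisplatin replicates 1 or 3. PDPK1, the kinase that activates AKT, fell by 0.32. It was not called with the length offset (-0.12), in limma on log2(TPM + 1), or without PBS replicate 3 or any cisplatin replicate.

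Of 13 tested genes whose transcription follows ERK activity, 6 fell and 2 rose, at a median log2 fold change of -0.24. Among all tested genes 19.3% fell and 18.9% rose. With the length offset 4 of the 13 fell and 2 rose, against 16.7% and 17.1% of all tested genes. PHLDA1 had 365 ± 12.5 CPM under cisplatin and 527 ± 31.0 CPM under PBS (log2 fold change -0.53 ± 0.07, edgeR adjusted p = 2.21e-04). The feedback inhibitor SPRY4 fell by 0.49 ± 0.08 and the ERK phosphatase DUSP6 by 0.34 ± 0.07 (edgeR adjusted p = 7.20e-04 for SPRY4 and 0.00384 for DUSP6). FOS rose by 1.38 ± 0.29, to 3.94 CPM under cisplatin against 1.56 CPM under PBS. ETV4 rose by 0.28 and was not called without cisplatin replicates 1 or 2 (adjusted p up to 0.296 over its alternatives, in limma on log2(TPM + 1)).

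Of 14 tested co-receptors and chaperones, 3 were higher and 1 lower, with a median of 0.09. Among all tested genes 18.9% were higher and 19.3% lower. With the length offset 3 of the 14 were higher and 2 lower, against 17.1% and 16.7% of all tested genes. The tetraspanin CD9 had 114 ± 2.39 CPM under cisplatin and 63.0 ± 2.33 CPM under PBS (log2 fold change 0.86 ± 0.07, edgeR adjusted p = 9.71e-06). The mucin MUC1 rose by 1.26 ± 0.21 and CDC37, which loads kinases onto HSP90, by 0.37 ± 0.07, a call lost in limma on log2(TPM + 1) (adjusted p = 0.0605). ERBIN, a scaffold that binds ERBB2, fell by 0.31 and stood at -0.07 with the length offset (edgeR adjusted p = 0.622), and its call was also lost without PBS replicate 2 or cisplatin replicates 1 or 3.

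**Figure D5:**
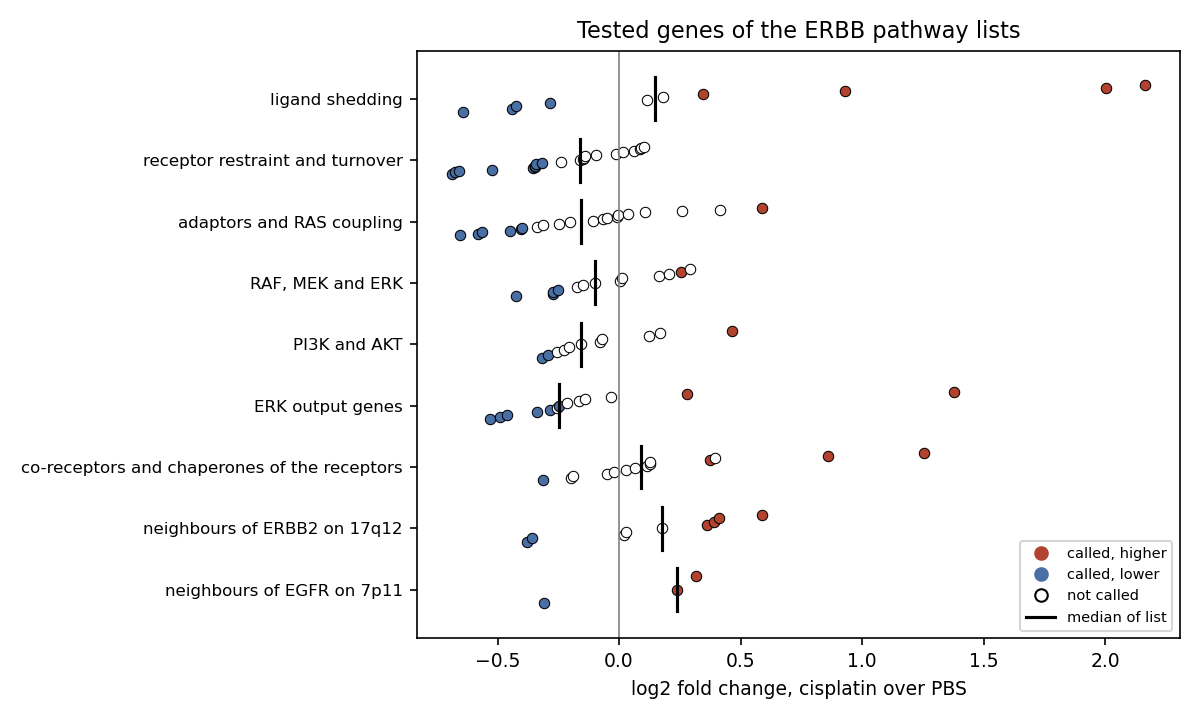
Log2 fold change, cisplatin over PBS, of each tested gene in 9 lists, filled red where called higher, blue where called lower and white where not called, with a bar at the median of each list. Of 21 tested genes of receptor restraint and turnover 8 are called, all below 0. Among all tested genes 19.3% are called lower and 18.9% higher. With the length offset 4 of the 21 are lower and 0 higher, against 16.7% and 17.1% of all tested genes. The shedding list has 4 on each side, or 4 higher and 2 lower with the length offset.

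Neighbours of ERBB2 on chromosome 17 did not all move with it. Of 9 tested, 4 were higher and 2 lower, with a median of 0.18, against 18.9% higher and 19.3% lower among all tested genes. With the length offset 3 of the 9 were higher and 0 lower, against 17.1% and 16.7% of all tested genes. GRB7, ORMDL3 (0.41 ± 0.07) and PGAP3 (0.36 ± 0.12) rose, MED1 (-0.36 ± 0.07) and CDK12 (-0.38 ± 0.08) fell, and MIEN1, the gene that overlaps the end of ERBB2, stood at 45.4 ± 2.88 CPM under cisplatin and 44.7 ± 2.57 CPM under PBS. PGAP3 was not called in DESeq2, in limma on log2(TPM + 1), or without PBS replicates 2 or 3 or cisplatin replicates 2 or 3. The falls of MED1 (-0.05) and CDK12 (-0.12) were not called with the length offset, and MED1 was also not called in limma on log2(TPM + 1). Near EGFR on chromosome 7, VOPP1 fell by 0.31 ± 0.07 (edgeR adjusted p = 0.00476), while LANCL2 (0.24) and SEC61G (0.32) rose. The call of LANCL2 was lost without PBS replicates 2 or 3 or cisplatin replicates 1 or 3, with no low-count filter and with the length offset. SEC61G stood at -0.03 with the length offset and was not called there. Its call was also lost with the replicate block and without PBS replicate 3 or cisplatin replicates 2 or 3. DESeq2 and limma on log2(TPM + 1) called neither gene.

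ERBB2 and TGFA averaged at least 10 CPM, and for these the protein-coding genes with the most similar log2 CPM over the 6 libraries were looked up among 9235 others. SFXN3 (Pearson r = 0.9989), GGT7 (0.9977) and CRTC2 (0.9966) were closest to ERBB2, and all 3 were higher under cisplatin, with log2 fold changes of 0.47, 0.72 and 0.31. CILK1 (0.9959), ZNF330 (0.9951) and ALKBH5 (0.9946) were closest to TGFA, with log2 fold changes of -0.44, -0.38 and -0.17, the last not called (edgeR adjusted p = 0.0792). The points are 2 groups of 3 libraries, so each correlation includes the difference between the groups.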

How the data were processed

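RNA was extracted with TRIzol, per the labels' protocols, and an ABclonal kit was used to build the libraries. The authors deposited, per library, unnormalized expected counts for every gene, not always whole numbers, beside TPM and FPKM values and transcript lengths, and the file headers are those RSEM writes; the deposited FPKM were not used. STAR 2.7.9 and GRCh38 (hg38) are named in the submitters' processing notes; for the quantifier's version, annotation and strand setting, nothing is given in the sources used here. Gene identifiers were matched to symbols for 61399 of 61552 genes, and positions are from GENCODE 29, on GRCh38.

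Expected counts were rounded and tested in edgeR 4.0.16 (R 4.3.3): filterByExpr with at least 10 counts and 15 in total, TMM scaling, the quasi-likelihood test on group, and Benjamini-Hochberg adjustment over 15063 genes. Standard errors are the log2 fold change over the square root of F, and CPM use TMM-adjusted library sizes. On simulated counts for 15063 genes with 200 changed, the fit of cisplatin against PBS called 65.7% of those set to 1.5-fold. It called 86.6% of those set to 2-fold and 100% of those set to 4-fold, and 6.15% of calls were false. The data had 5752 calls and a trend with transcript length that the simulation lacked, so these rates may not hold for them. The length offset was a lowess curve (span 0.5) of each library's deviation in log2 CPM on log2 length.

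The 6 libraries all differed in their counts. The members and gene lists were chosen with earlier results of these data known. Named genes were the 9 members, the other EGF-family ligands and, from each list, up to 3 called genes in each direction with the smallest adjusted p. For ERBB2 and TGFA, which averaged at least 10 CPM, the 3 protein-coding genes of most similar log2 CPM were added. ADAM9, ADAM15, GRB2 and MIEN1 were named outside the rule, after their values were seen. The alternatives were other scalings (RLE, upper quartile, total count), other count filters (none, or 50 counts in 3 libraries), the replicate block, leaving out each library, DESeq2 1.42.0, limma 3.58.1 (voom, and log2(TPM + 1)) and the length offset. The planned exact two-sided permutation test was run on the summed receptor TPM, the summed ligand TPM and the ERBB3 share. Its p was 0.1 for each sum, the smallest that 3 against 3 libraries can give. For the ERBB3 share the exact permutation p was 0.7. No test is given for the other sums and shares.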

Additional observations from a re-analysis of the deposited data

How the results depend on the processing

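ERBB2, ERBB4, AREG and TGFA kept their direction and stayed called, and ERBB3 and HBEGF stayed uncalled with a positive value, in every alternative that tested them. EGFR kept its direction but lost its call with DESeq2 (-0.64), limma on log2(TPM + 1) (-0.21) and the length offset (-0.25), and in 5 of the 6 fits that left out 1 library (-0.78 to -0.495 over the 6 fits); the cause was not tested. With at least 50 counts in 3 libraries only 3 listed genes were tested and 2 were called. Over all genes limma on log2(TPM + 1) called 2861, against 5752 in edgeR, and leaving out 1 library gave 4205 to 5283. With the replicate block 5819 genes and the same number of listed genes, 5, were called. Libraries with the same number did not all deviate together (r = 0.066, 0.123 and -0.076), and cisplatin replicate 1 correlated best with PBS replicate 3 (0.130). With 3 libraries per group these correlations cannot decide whether the numbers pair the libraries. The difference in the ERBB3 share, -5.41 percentage points, was 0.900 without PBS replicate 2. With no low-count filter the log2 values were 0.38 for NRG1 (edgeR adjusted p = 0.682), -1.49 for NRG2 (0.0834) and -1.31 for NRG3 (0.0595). NRG3 was tested and called without PBS replicate 2 (-1.57, edgeR adjusted p = 0.0338). It was tested but not called without cisplatin replicates 1, 2 or 3 (edgeR adjusted p = 0.18, 0.0904 and 0.0718). NRG2 was tested but not called without cisplatin replicates 1 or 2 (edgeR adjusted p = 0.0573 and 0.171). Low counts, under 100 in every library, limit EGFR, ERBB4, AREG and HBEGF.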
